A study of Mus musculus with 12 samples.

Results

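The heat shock proteins, J proteins and folding enzymes of the endoplasmic reticulum (ER) were followed in mouse hearts with and without Adam12, after pressure overload or sham surgery. Members were all genes whose symbols begin with Hspa, Hspb, Hspd, Hspe, Hsph, Hsp90, Dnaja, Dnajb, Dnajc or Pdia, together with Calr, Canx and Hyou1, read on a probe set that carries 1 gene symbol. This gave 68 members of 26989 genes measured. By the place where their proteins work, 41 were cytosolic or nuclear, 18 belonged to the ER, 6 were mitochondrial, and 3 were not placed (Dnajc22, Hspb11 and Hspbap1). A further 11 genes of these families were not analysed here, among them Hspa1a, Hspa1b, Hsp90ab1 and Hspa9, and 3 (Dnaja1, Pdia4 and Dnajc19) lay on probe sets that carry another symbol as well.

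The hearts came from male C57BL/6J mice that the labels give as 10 weeks old, taken 2 weeks after surgery. The groups were ADAM12 knockout (KO) hearts after transverse aortic constriction (TAC, a narrowing of the aortic arch that loads the left ventricle), KO hearts after sham operation, wild type (WT) hearts after TAC and WT hearts after sham operation, with 3 biological replicates each. ADAM12 is a membrane-anchored metalloprotease, and the series asks how hearts lacking it respond to this load; how the knockout allele was made is not given in the sources used here. All levels below are log2 signals from 1 array per heart, so that a difference of 1 is a doubling, and array medians over all probe sets other than controls ran from 4.93 to 5.10. The probe set of Adam12, shared with 5830403F22Rik, was dim: it averaged 4.33 ± 0.08 in KO TAC, 4.35 ± 0.04 in KO sham, 4.70 ± 0.12 in WT TAC and 4.54 ± 0.07 in WT sham hearts (SD, n = 3 each). Every KO array read below every WT array there, but the differences did not pass (KO minus WT -0.37 ± 0.09 after TAC, limma adjusted p = 0.163, and -0.19 ± 0.09 after sham, adjusted p = 0.868).

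Chaperones hold unfolded proteins and let them go until they fold. HSP70 proteins do this with ATP, J proteins (the Dnaj genes) bring them clients and start their ATP cycle, HSP90 proteins finish the folding of signalling proteins, and small heat shock proteins (the Hspb genes), abundant in heart muscle, hold clients without ATP. In the ER, Hspa5 (BiP) and Hsp90b1 (GRP94) do the same work for secreted and membrane proteins, calnexin (Canx) and calreticulin (Calr) hold glycoproteins by their sugars, and the Pdia enzymes form and exchange disulfide bonds. In mitochondria, Hspd1 (HSP60) and Hspe1 (HSP10) form a folding chamber and its lid. Load on the ER acts through the unfolded protein response, whose factors ATF6 and XBP1 raise ER chaperone genes, and load on the cytosol acts through heat shock factor 1.

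Promoter sequences are shown first because some ER members share an element by which the unfolded protein response is known to act. RefSeq windows (build GRCm38.p6) were available for 57 of the 68 members, and the 250 bases before each start were searched on both strands for the ER stress response element, ERSE, which NF-Y and ATF6 bind. The letters searched were CCAAT and CCACG with any 9 bases between them. It stood before 6 of 17 ER members (Calr, Canx, Dnajc3, Hsp90b1, Hspa5 and Pdia6), 0 of 34 cytosolic members and 0 of 4 mitochondrial members, against 0.113% of all 32851 promoter windows. The lines below show each match with its neighbours, 5′ to 3′ on the strand that reads CCAAT first, with the fixed letters of the element in capitals.
Calr, chr8:84847060-84847108, plus strand: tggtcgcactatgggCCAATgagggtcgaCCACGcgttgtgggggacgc
Canx, chr11:50325785-50325833, minus strand: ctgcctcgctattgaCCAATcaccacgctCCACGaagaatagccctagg
Dnajc3, chr14:118937812-118937860, plus strand: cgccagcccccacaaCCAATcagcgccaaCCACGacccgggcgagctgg
Hsp90b1, chr10:86705518-86705566, plus strand: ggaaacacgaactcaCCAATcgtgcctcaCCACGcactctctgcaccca
Hsp90b1, chr10:86705623-86705671, minus strand: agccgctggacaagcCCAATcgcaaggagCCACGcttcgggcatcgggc
Hspa5, chr2:34772010-34772058, plus strand: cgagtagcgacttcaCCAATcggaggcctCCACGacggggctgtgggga
Pdia6, chr12:17266476-17266524, plus strand: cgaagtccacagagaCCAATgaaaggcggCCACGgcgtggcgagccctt
Calr and Hsp90b1 lie on the minus strand, so for Calr and for the first of the Hsp90b1 elements the match is on the strand opposite to the gene. All of these elements lie upstream of the transcript start, between 212 and 47 bases before it.

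Pdia3, the ER member with the largest rise described below, held no exact match. An element with 1 changed letter, G19A counted from 1 at the first letter of the ERSE, stood 29 to 11 bases before its start. With 1 letter changed the element occurs in 1.22% of promoter windows, against 0.113% for the exact element. Among members it also stood before the cytosolic Dnaja4 (T5C) and, as a further site, before Hsp90b1 (C18G).
Pdia3, chr2:121413858-121413901, plus strand: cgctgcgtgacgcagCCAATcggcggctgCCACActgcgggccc
The whole stretch before the Hspa5 start, a standard reporter of ER stress, is given for context, with the ERSE in capitals close to its 3′ end.
Hspa5, chr2:34771840-34772089, plus strand: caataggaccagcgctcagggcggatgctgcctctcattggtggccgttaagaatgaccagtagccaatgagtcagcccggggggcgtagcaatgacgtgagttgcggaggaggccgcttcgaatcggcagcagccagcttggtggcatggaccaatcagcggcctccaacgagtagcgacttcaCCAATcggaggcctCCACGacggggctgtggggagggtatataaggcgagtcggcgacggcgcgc
The heat shock element searched was GAA, TTC and GAA with any 2 bases between neighbours. It stood before 3 members (Dnajb6, Hspd1 and Hspe1) and in 0.466% of all windows. Hspd1 and Hspe1 are transcribed away from each other on chromosome 1 and share it: 2 overlapping matches, 1 on each strand, begin 89 bases and end 72 bases before the Hspe1 start. They also lie 127 to 144 bases before 1 of the 2 annotated Hspd1 starts, and inside the gene counted from the other. Capitals mark the fixed letters of both matches.
Hspd1 and Hspe1, chr1:55088053-55088082, plus strand: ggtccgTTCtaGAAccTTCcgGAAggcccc

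TAC in KO hearts changed chaperones of the ER, the mitochondria and the cytosol. Pdia3, Dnajc10 and Hsp90aa1 rose, and Dnaja3, Hspd1, Dnajb12, Dnajc25, Dnajb2 and Canx fell, KO TAC against KO sham. In all 9 of 68 members were called (limma, adjusted p under 0.05 over all genes), 13.2% against 12.8% of all genes, with 3 higher and 6 lower beside 7.08% and 5.68% of all genes. By count of calls the members thus stood near the background. An unadjusted limma p under 0.05 was found for 24 members (35.3%, against 24.4% of all genes). The calls were 5 of 18 ER members, 2 of 6 mitochondrial members and 2 of 41 cytosolic members, 9 of which are dim (mean signal under 6); the compartments were not tested against each other. The median difference was 0.11 over ER members, -0.32 over mitochondrial members and 0.02 over cytosolic members, against -0.03 over all genes. Here 26 of 68 members, and 32.3% of all genes, had KO TAC and KO sham arrays that did not overlap.

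Among ER members, Pdia3 (ERp57), the disulfide isomerase that works with calnexin and calreticulin on glycoproteins, read 13.84, 13.80 and 13.43 in KO TAC hearts, against 13.09, 13.14 and 13.02 in KO sham hearts. It rose by 0.61 ± 0.13 (SE), a fold of 1.52 (limma adjusted p = 0.00843). All KO TAC arrays lay above all KO sham arrays, and the third KO TAC heart was the lowest of its group. Dnajc10 (ERdj5), a J protein with reductase activity that opens disulfides of misfolded proteins before their removal, read 10.37, 10.65 and 10.42 in KO TAC hearts, against 10.00, 9.89 and 9.86 in KO sham hearts. Its rise was 0.56 ± 0.10, a fold of 1.48 (limma adjusted p = 0.00321), the smallest p among the members, again without overlap.

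Canx, the membrane-bound lectin chaperone, went the other way. It read 14.62, 14.64 and 14.50 in KO TAC hearts, against 14.82, 14.81 and 14.84 in KO sham hearts, and fell by 0.24 ± 0.07 (limma adjusted p = 0.0382), a fold of 0.848. The KO sham arrays were nearly identical to each other and all above the KO TAC arrays. Dnajb12, a J protein of the ER membrane that faces the cytosol and recruits HSP70 to misfolded membrane proteins, averaged 8.93 ± 0.07 in KO TAC and 9.25 ± 0.15 in KO sham hearts (SD, n = 3 each), a fall of 0.32 ± 0.09 (adjusted p = 0.0309). Dnajc25 averaged 7.54 ± 0.06 in KO TAC and 7.84 ± 0.06 in KO sham hearts, a fall of 0.29 ± 0.08 (adjusted p = 0.0398). Neither overlapped between the groups.

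The chaperones that usually define ER stress did not pass in KO hearts. Hspa5 read 13.89, 13.48 and 13.19 in KO TAC hearts, against 13.60, 13.68 and 13.63 in KO sham hearts (difference -0.12 ± 0.15, adjusted p = 0.708). The 3 KO TAC arrays spread on both sides of the tight KO sham group. Hsp90b1 read 15.04, 14.86 and 14.59 in KO TAC hearts, against 14.82, 14.88 and 14.78 in KO sham hearts (0.01 ± 0.11, adjusted p = 0.980), and Hyou1, the large HSP70 that reloads BiP with ATP, read 9.26, 8.76 and 8.53 in KO TAC hearts, against 8.74, 8.79 and 8.80 in KO sham hearts (0.07 ± 0.17, adjusted p = 0.854). The same order of the KO TAC hearts, the first highest and the third lowest, held in Hspa5, Hsp90b1, Hyou1, Pdia3 and Pdia6. Pdia6, a disulfide isomerase bound to BiP, averaged 12.01 ± 0.34 in KO TAC and 11.70 ± 0.15 in KO sham hearts (0.31 ± 0.16, adjusted p = 0.259), and Pdia5, a further member of that family, 7.06 ± 0.10 in KO TAC and 6.80 ± 0.05 in KO sham hearts (0.26 ± 0.09, adjusted p = 0.0757). Calr, the soluble partner of calnexin, averaged 14.04 ± 0.19 in KO TAC and 13.84 ± 0.05 in KO sham hearts (0.21 ± 0.10, adjusted p = 0.233). The BiP co-chaperones Dnajb11 and Dnajc3 had differences of 0.13 ± 0.08 and 0.28 ± 0.15 (adjusted p = 0.355 and 0.299), and Dnajb9, which holds back the stress sensor IRE1, one of -0.39 ± 0.22 (adjusted p = 0.329).

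The mitochondrial members were lower in KO TAC than in KO sham hearts in 5 of 6 cases. Hspd1, the HSP60 chamber, read 12.96, 13.04 and 13.19 in KO TAC hearts, against 13.47, 13.47 and 13.54 in KO sham hearts, and fell by 0.43 ± 0.09 (limma adjusted p = 0.0106), a fold of 0.742. Dnaja3, the J protein that serves mitochondrial HSP70, read 10.56, 10.74 and 10.92 in KO TAC hearts, against 11.27, 11.09 and 11.20 in KO sham hearts, and fell by 0.45 ± 0.10 (adjusted p = 0.0109), a fold of 0.734. In both genes every KO TAC array lay below every KO sham array. Hspe1, the HSP10 lid that shares the element shown above with Hspd1, read 9.12, 9.03 and 9.10 in KO TAC hearts, against 9.33, 9.33 and 9.49 in KO sham hearts. The difference of -0.30 ± 0.09 missed the threshold (adjusted p = 0.0539) although no arrays overlapped, and so did that of Dnajc15, a J protein of the inner membrane, at -0.35 ± 0.10 (adjusted p = 0.0516). Dnajc30, a dim member, had a difference of -0.25 ± 0.12 (adjusted p = 0.201), and Dnajc11, tied to the folding of the inner membrane, stayed level within its error at 0.01 ± 0.06 (adjusted p = 0.943).

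Of the cytosolic members 1 rose and 1 fell. Hsp90aa1, the inducible HSP90, read 13.86, 13.77 and 13.75 in KO TAC hearts, against 13.00, 13.22 and 13.33 in KO sham hearts, and rose by 0.61 ± 0.13 (limma adjusted p = 0.0114), a fold of 1.52. The groups were separate, with the tighter spread after TAC. Dnajb2, a J protein that hands clients to the ubiquitin system, averaged 7.35 ± 0.07 in KO TAC and 7.63 ± 0.10 in KO sham hearts, a fall of 0.28 ± 0.08 (adjusted p = 0.0439). The exchange factors of HSP70 had differences of 0.17 ± 0.07 for Hspa4 (adjusted p = 0.161) and 0.35 ± 0.21 for Hsph1 (adjusted p = 0.365), and Dnajb1, the main inducible J protein of the cytosol, one of 0.05 ± 0.13 (adjusted p = 0.872). The small heat shock proteins did not pass: Hspb7 averaged 18.62 ± 0.10 in KO TAC and 18.69 ± 0.04 in KO sham hearts, and the differences were 0.14 ± 0.12 for Hspb8, 0.24 ± 0.15 for Hspb1, -0.09 ± 0.10 for Hspb6 and -0.30 ± 0.17 for Hspb2, at adjusted p from 0.310 to 0.687.

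Hspa8, the constitutive HSP70, was read at 19.59 ± 0.10 in KO TAC and 19.51 ± 0.03 in KO sham hearts (0.08 ± 0.08, adjusted p = 0.599). That value is uncertain: the gene lies on chromosome 9, while the IDs of its 4 probe sets with this symbol alone name chromosomes 6, 14 and 1, where near-identical copies may be read, and it lies close to the highest value of the table, 19.93. A probe set named for chromosome 9, which also carries Snord14 symbols, differed by 0.10 ± 0.11 in a fit of all probe sets (adjusted p = 0.720). A mean signal under 6 was found for 11 members, and the 9 called members were all among the other 57. Pdia4, a disulfide isomerase outside the members because its probe set also names Mir704, averaged 10.91 ± 0.40 in KO TAC and 10.13 ± 0.13 in KO sham hearts (0.77 ± 0.23, adjusted p = 0.0760 over all probe sets), and Dnaja1, a cytosolic J protein sharing its probe set with Mir207, 10.90 ± 0.22 in KO TAC and 10.76 ± 0.40 in KO sham hearts (0.14 ± 0.18, adjusted p = 0.768).

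**Figure D1:**
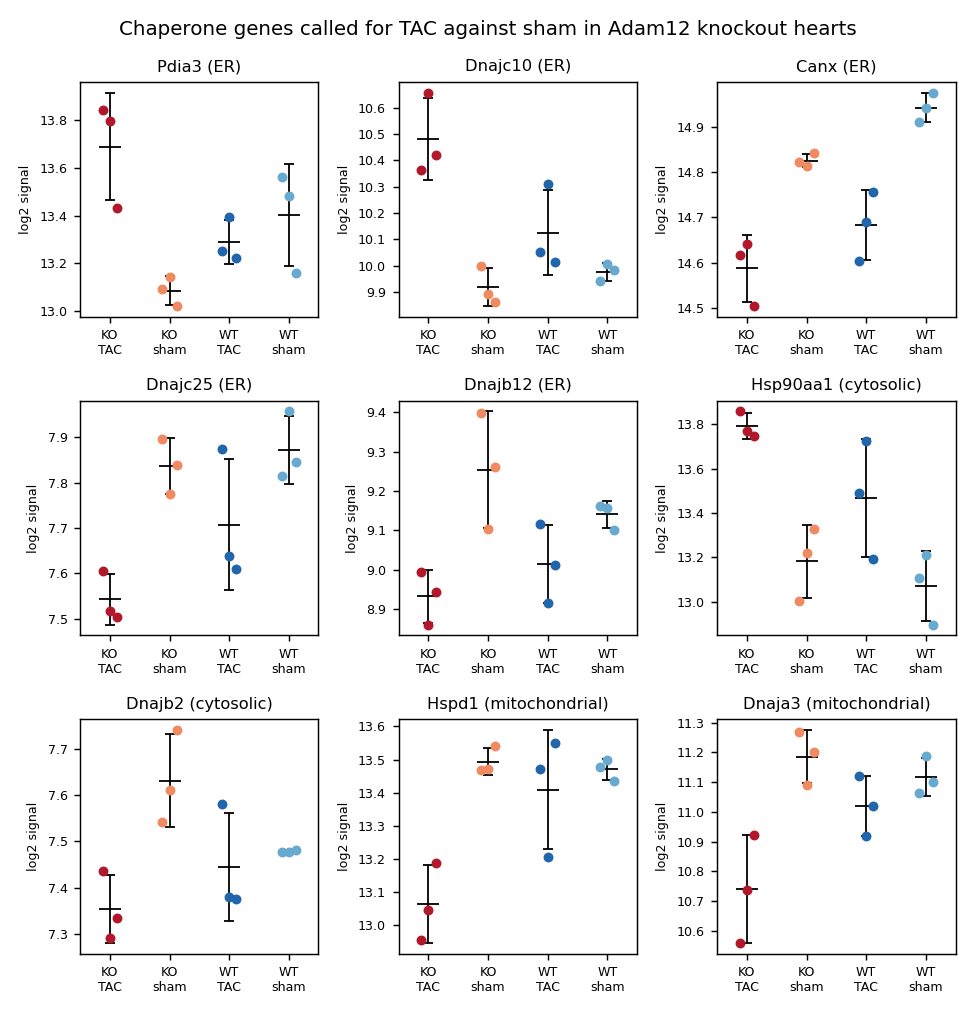
Log2 signal (vertical axis, scaled per panel) of the 9 members called for TAC against sham in KO hearts, in the 4 groups. Points are single hearts, bars the mean and SD of 3; in every panel the KO TAC points lie wholly above or wholly below the KO sham points.

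Each array was left out in turn to see how far the calls rest on it. Pdia3, Dnajc10, Hspd1 and Dnaja3 were called whichever of the 12 arrays was left out. Their highest limma adjusted p was 0.0427, 0.0183, 0.0469 and 0.0465 in that order, so all but Dnajc10 came close to the threshold. Hsp90aa1 missed the threshold without KO sham 1 (adjusted p = 0.0503), Dnajb12 without any 1 of 4 arrays (KO sham 1 or 3, KO TAC 2 or 3; up to 0.119), and Dnajc25, Canx and Dnajb2 without any 1 of 8, 9 and 9 arrays (up to 0.125, 0.135 and 0.169). With the replicate number as a block Dnajb2 missed the threshold (adjusted p = 0.0510), and Dnaja2 and Dnajc21 were called (-0.24 and -0.29, adjusted p = 0.0405 and 0.0226). The count of 9 fell to 5 without KO TAC 2, KO sham 1 or KO sham 3.

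In WT hearts 0 of 68 members were called for TAC against sham by limma, where 0.178% of all genes were (0.0667% higher and 0.111% lower), and 12 members had an unadjusted p under 0.05 (17.6%, against 12.3% of all genes). The median difference was -0.13 over ER members, with 14 of 18 below 0, against 0.07 over cytosolic members, -0.04 over mitochondrial members and 0.02 over all genes. The values nearest to a call were those of Hspb8, Canx, Hspa5, Dnajb9 and Dnajb1.

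Hspa5 read 13.47, 13.40 and 13.42 in WT TAC hearts, against 14.07, 14.20 and 13.78 in WT sham hearts (difference -0.58 ± 0.15, adjusted p = 0.147). Dnajb9 read 12.84, 12.53 and 12.48 in WT TAC hearts, against 13.63, 13.51 and 13.08 in WT sham hearts (-0.79 ± 0.22, adjusted p = 0.169, and 0.0465 with the replicate number as a block). Canx read 14.60, 14.69 and 14.76 in WT TAC hearts, against 14.91, 14.94 and 14.97 in WT sham hearts (-0.26 ± 0.07, adjusted p = 0.142). In these 3 genes every WT TAC array lay below every WT sham array, and the same held for Hsp90b1 (-0.31 ± 0.11, adjusted p = 0.254) and Hyou1 (-0.49 ± 0.17, adjusted p = 0.250). Hspb8, a small heat shock protein that works with Bag3 in the clearance of damaged sarcomere proteins, read 14.85, 14.57 and 14.44 in WT TAC hearts, against 14.02, 14.20 and 14.15 in WT sham hearts (0.49 ± 0.12, adjusted p = 0.112). Dnajb1 averaged 8.67 ± 0.15 in WT TAC and 8.26 ± 0.15 in WT sham hearts (0.41 ± 0.13, adjusted p = 0.240). For both the TAC arrays were all higher. Hsp90aa1 differed by 0.40 ± 0.13 (adjusted p = 0.249), with 1 WT TAC array inside the WT sham range, and Pdia3 by -0.11 ± 0.13 (adjusted p = 0.780). WT TAC and WT sham arrays did not overlap for 15 of 68 members, beside 16.1% of all genes.

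**Figure D2:**
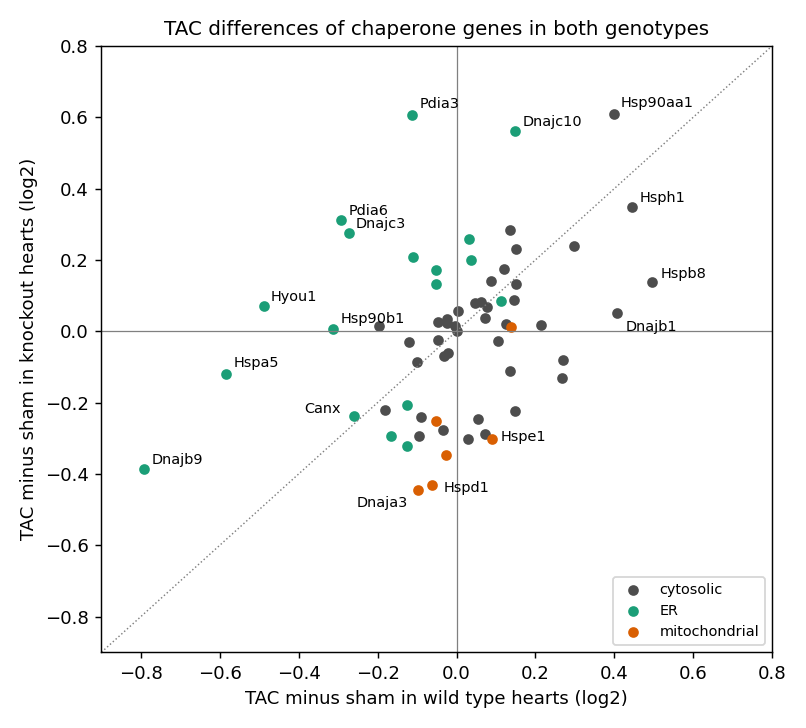
TAC minus sham in KO hearts (vertical axis, log2) against TAC minus sham in WT hearts (horizontal axis, log2), 1 point per cytosolic, ER or mitochondrial member (the 3 unplaced members are left out); the dotted line marks equal differences. ER members lie mostly above the line and mitochondrial members below it, with Pdia3 at 0.61 in KO and -0.11 in WT hearts and Hspd1 at -0.43 in KO and -0.06 in WT hearts.

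Whether the response to TAC depended on genotype was tested directly as an interaction, the KO difference minus the WT difference. By limma 0 of 68 members and 0% of all genes were called, and 13 members had an unadjusted p under 0.05 (19.1%, against 11% of all genes). The ER members had a median interaction of 0.27, with 14 of 18 above 0, the mitochondrial members one of -0.34, with 6 of 6 below 0, the cytosolic members one of -0.04 and all genes one of -0.04. Pdia3 had the smallest p of the members, with an interaction of 0.72 ± 0.18 (unadjusted p = 0.00188, adjusted p = 0.259). Dnajc10 followed among ER members at 0.41 ± 0.14 (adjusted p = 0.320), with Pdia6 at 0.60 ± 0.22, Hyou1 at 0.56 ± 0.23 and Dnajc3 at 0.55 ± 0.21 (adjusted p = 0.352, 0.415 and 0.372). Below 0 stood Hspe1 at -0.39 ± 0.13 (adjusted p = 0.313), Hspd1 at -0.37 ± 0.13 (adjusted p = 0.346) and the cytosolic Dnajc17 at -0.37 ± 0.12 (adjusted p = 0.289). A difference between the genotypes was therefore not shown for any member, and the calls in KO hearts alone do not show one.

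**Figure D3:**
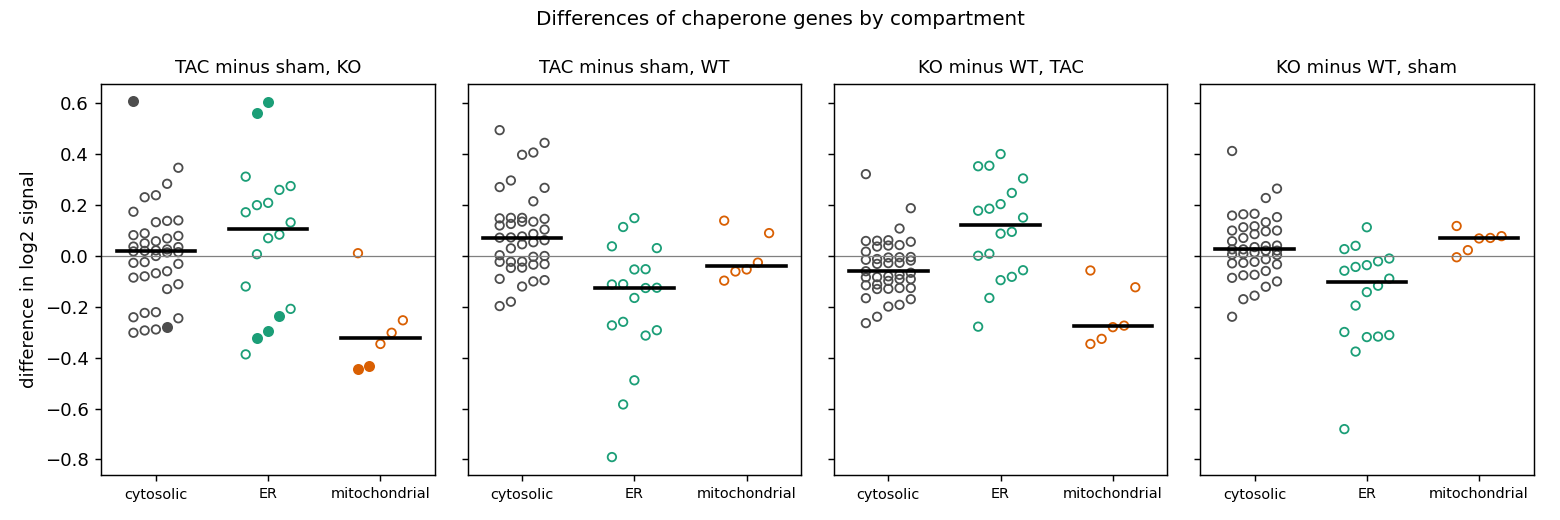
Difference in log2 signal (vertical axis) of each cytosolic, ER and mitochondrial member in 4 comparisons, with the median of each compartment as a bar; filled points are called by limma at adjusted p under 0.05, and the 3 unplaced members are left out. Filled points appear only for TAC minus sham in KO hearts, where the mitochondrial median is -0.32 and the ER median 0.11.

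Set side by side after the same surgery, KO and WT hearts gave 0 called members in either comparison, and both share their samples with the TAC comparisons above. After TAC, 0.0111% of all genes were called, and 12 members had an unadjusted p under 0.05 (17.6%, against 14.6% of all genes). KO TAC and WT TAC arrays did not overlap for 11 members, beside 19.2% of all genes. The KO minus WT median was -0.28 over mitochondrial members, all 6 below 0, 0.12 over ER members, -0.06 over cytosolic members and -0.04 over all genes. Hspd1, at 12.96, 13.04 and 13.19 in KO TAC hearts, stood against 13.47, 13.21 and 13.55 in WT TAC hearts (-0.35 ± 0.09, adjusted p = 0.111). The second WT TAC heart was the one closest to the KO hearts. Dnajc15 averaged 11.73 ± 0.07 in KO TAC and 12.06 ± 0.20 in WT TAC hearts (-0.33 ± 0.10, adjusted p = 0.170), and Hspe1 9.08 ± 0.05 in KO TAC and 9.36 ± 0.16 in WT TAC hearts (-0.27 ± 0.09, adjusted p = 0.191). Dnajc10, at 10.37, 10.65 and 10.42 in KO TAC hearts, stood against 10.05, 10.31 and 10.01 in WT TAC hearts (0.35 ± 0.10, adjusted p = 0.117), and Pdia3 averaged 13.69 ± 0.23 in KO TAC and 13.29 ± 0.09 in WT TAC hearts (0.40 ± 0.13, adjusted p = 0.163). Without WT TAC 2, Hspd1, Dnajc15 and Dnajc10 were called (-0.45, -0.44 and 0.45, adjusted p = 0.0210, 0.0315 and 0.0356). Col1a1, a fibroblast collagen, was higher in that heart (12.40) than in WT TAC 1 and 3 (11.10 and 10.07), against 12.99 to 13.51 in KO TAC hearts; its part in the result was not tested.

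After sham surgery 0% of all genes were called, and 7 members had an unadjusted p under 0.05 (10.3%, against 5.54% of all genes). ER members were below 0 in 15 of 18 cases, with a KO minus WT median of -0.10, against 0.03 over cytosolic, 0.07 over mitochondrial members and 0.01 over all genes. Dnajb9 averaged 12.72 ± 0.14 in KO sham and 13.41 ± 0.29 in WT sham hearts (-0.68 ± 0.22), Hsp90b1 14.83 ± 0.05 in KO sham and 15.14 ± 0.13 in WT sham hearts (-0.32 ± 0.11), and Pdia3 13.08 ± 0.06 in KO sham and 13.40 ± 0.21 in WT sham hearts (-0.32 ± 0.13). Hspa5 averaged 13.64 ± 0.04 in KO sham and 14.02 ± 0.22 in WT sham hearts (-0.38 ± 0.15). The dim Dnajc5b had a difference of -0.24 ± 0.08. In the other direction Dnajb1 averaged 8.68 ± 0.17 in KO sham and 8.26 ± 0.15 in WT sham hearts (0.41 ± 0.13), and Hspb8 averaged 14.39 ± 0.07 in KO sham and 14.13 ± 0.09 in WT sham hearts (0.27 ± 0.12, adjusted p = 0.893). The adjusted p of the other 6 genes was 0.891. KO sham and WT sham arrays did not overlap for 15 of 68 members, beside 12.3% of all genes. These 7 genes, picked by their p, were among the 15.

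**Figure D4:**
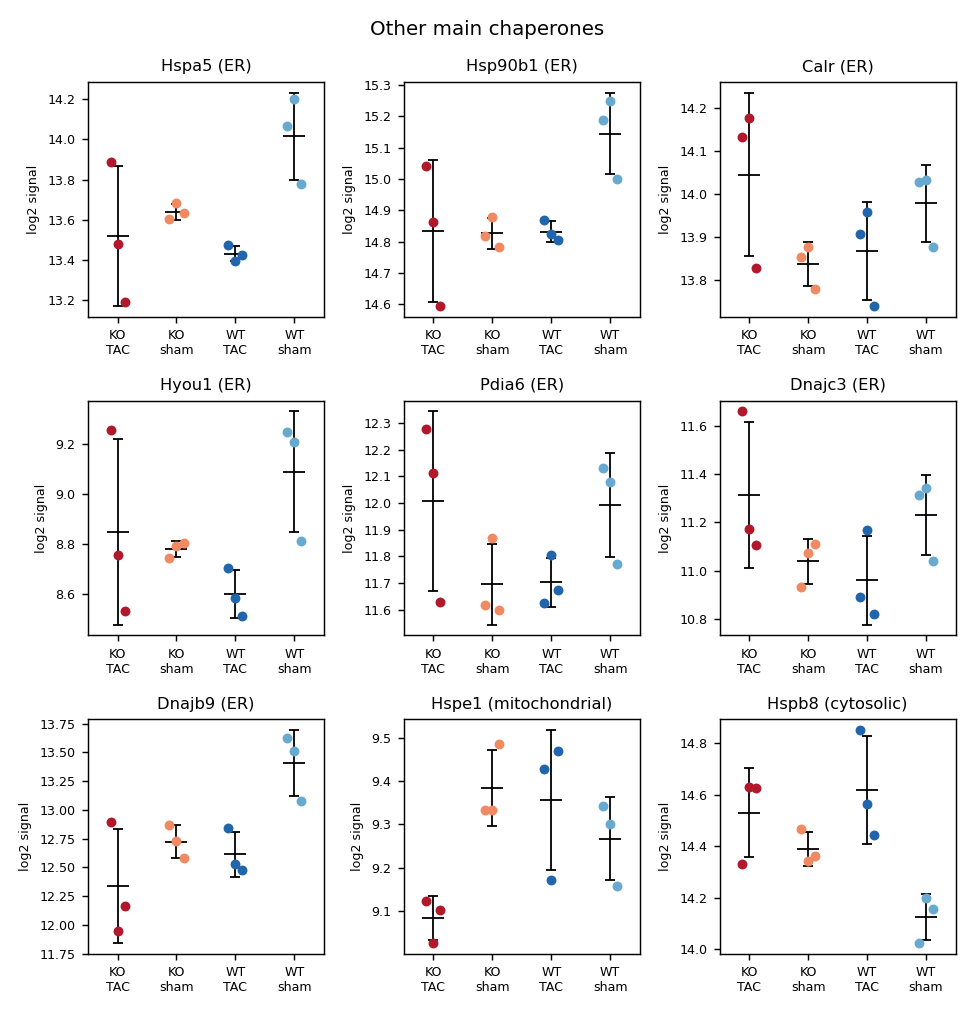
Log2 signal (vertical axis, scaled per panel) of 9 further main chaperones in the 4 groups, with points for single hearts and bars for the mean and SD of 3. Hspa5, Hsp90b1 and Dnajb9 are highest in WT sham hearts, Hspe1 lowest in KO TAC hearts, and Hspb8 lowest in WT sham hearts.

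The 6 ER members with an exact ERSE were set beside the other 12, as a description without a test. The other 12 include Hyou1, which had no promoter window and so was not searched for the element. For TAC in WT hearts all 6 had differences below 0, with a median of -0.28, against -0.08 over the other 12, of which 8 were below 0. KO minus WT after sham was also below 0 in all 6, with a median of -0.25, against -0.04 over the other 12. These comparisons share the WT sham hearts, which read highest for several of these genes. For TAC in KO hearts the median was 0.11 over the 6 and 0.11 over the other 12. The interaction also uses the WT sham hearts, so it is not separate from those comparisons. It was above 0 in 6 of 6 genes with the element (median 0.39) and in 8 of the other 12 (median 0.20). Of the 6, Canx stood level within its error at 0.021 ± 0.095. By array, the median deviation of the 18 ER members from their means was 0.17, 0.04 and -0.12 in KO TAC hearts, -0.08, -0.04 and -0.03 in KO sham hearts, -0.04, -0.04 and -0.13 in WT TAC hearts, and 0.12, 0.11 and -0.06 in WT sham hearts. KO TAC and WT sham hearts each held arrays above and below 0, and the groups overlapped. The mitochondrial members read -0.26, -0.22 and -0.13 on this scale in KO TAC hearts, below the -0.10 to 0.18 of the other 9 arrays.

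**Figure D5:**
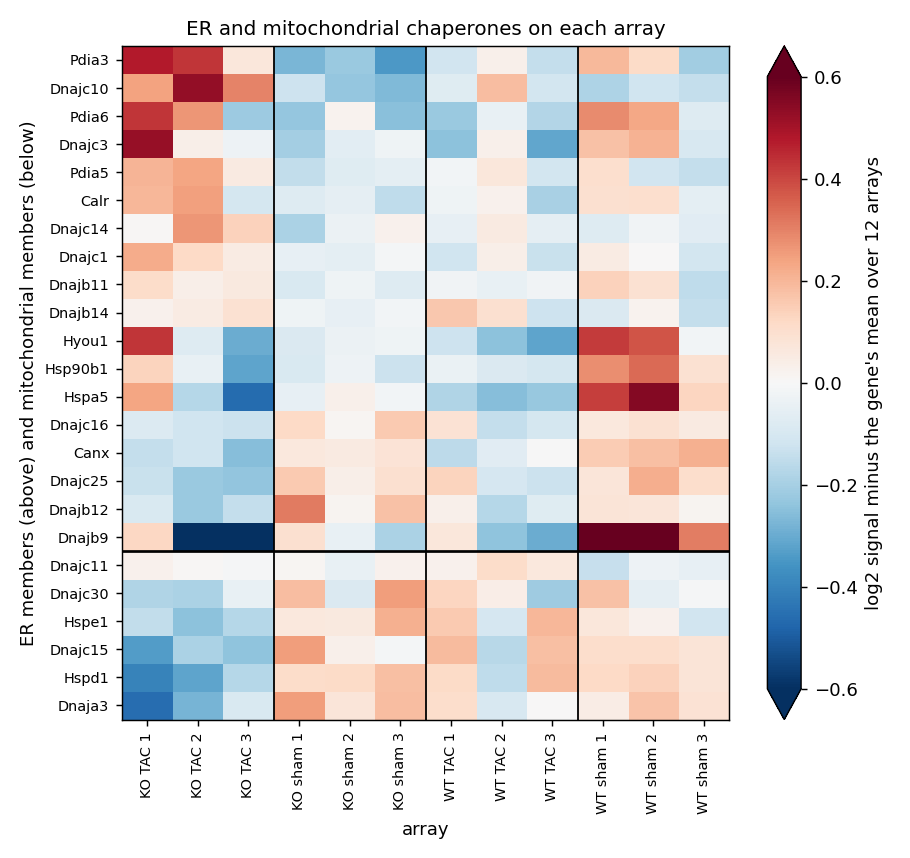
Log2 signal minus the gene's mean over 12 arrays (colour, limited to 0.6 either way) for the 18 ER members above the line and the 6 mitochondrial members below it, by array. Pdia3 and Dnajc10 are above their means in all KO TAC hearts, Hspa5 and Dnajb9 are highest in WT sham 1 and 2, and Hspd1 is lowest in the 3 KO TAC hearts.

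Averaged over genotypes, TAC against sham called 10 of 68 members by limma, 14.7% against 13.6% of all genes, with 3 higher (7.49% of all genes) and 7 lower (6.12%). An unadjusted limma p under 0.05 was found for 25 members (36.8%, against 24.5% of all genes). Hsp90aa1 rose by 0.50 ± 0.10 (adjusted p = 0.00456), Dnajc10 rose by 0.35 ± 0.07 (adjusted p = 0.00548) and Hspb8 rose by 0.32 ± 0.08 (adjusted p = 0.0240). Dnajb9 fell by 0.59 ± 0.16 (adjusted p = 0.0278) and Canx fell by 0.25 ± 0.05 (adjusted p = 0.00483). The other members that fell, by 0.20 to 0.27, were Dnaja3, Hspd1, Dnajc25, Dnajb12 and Dnajc9, a histone-binding J protein. These averages need not describe both genotypes. Hspd1 differed by -0.43 in KO and -0.06 in WT hearts, Dnaja3 by -0.45 and -0.10, and Dnajc10 by 0.56 and 0.15. Hspb8 differed by 0.14 in KO and 0.49 in WT hearts and Dnajb9 by -0.39 and -0.79, while Canx was alike at -0.24 and -0.26. Canx, Dnajc10 and Hsp90aa1 were called whichever array was left out. With the replicate number as a block Hspa5 (-0.35, adjusted p = 0.0364) and Pdia3 (0.25, adjusted p = 0.0277) were called as well. For Pdia3 the differences averaged had opposite signs, 0.61 in KO and -0.11 in WT hearts. The count fell to 4 without WT sham 2, WT TAC 2, KO sham 1, KO sham 3 or KO TAC 2, to 5 without WT sham 1 and to 6 without KO sham 2.

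Genes that work with the chaperones were counted in lists by role for TAC in KO hearts, beside the 7.08% of all genes that rose and 5.68% that fell. Of 13 sensors and factors of the unfolded protein response 5 rose and 0 fell (median 0.25), among them Eif2ak3 (the sensor PERK) by 0.38, Mbtps1 (the protease that cuts ATF6) by 0.31, Atf3 by 0.72 and Atf4 by 0.46. Xbp1, Atf6 and Ddit3 had differences of 0.06, -0.08 and 0.14 (adjusted p = 0.848, 0.636 and 0.698), and are named here after their values were seen. Of 24 genes of ER quality control and degradation 7 rose and 1 fell (median 0.20). The disulfide isomerase Txndc5 rose by 0.96, P4hb by 0.66 and the translocon partner Ssr1 by 0.46, while Herpud1, a scaffold of ER degradation, fell by 1.37. Of 16 genes for collagen folding and modification 10 rose and 1 fell (median 0.48), and the 4 with the smallest p were Plod2 at 0.97, P4ha3 at 0.88, P3h3 at 0.68 and P3h1 at 0.42, all enzymes that hydroxylate procollagen in the ER. P4hb is also a subunit of the collagen prolyl hydroxylase.

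Outside the ER the counts ran downward or were 0. Of 15 genes listed as heat shock factors and co-chaperones of HSP70 and HSP90, 0 rose and 2 fell (median -0.16). Fkbp4, which brings HSP90 to steroid receptors, fell by 0.72 and Bag1, an HSP70 exchange factor, fell by 0.34. Hsf2 was the only heat shock factor measured in that list, which also held the small heat shock protein Cryab. Cryab differed by -0.40 ± 0.14 (limma adjusted p = 0.0825), and by -0.38 for TAC averaged over genotypes (adjusted p = 0.0221). Of 9 cytosolic chaperonin and prefoldin subunits limma called 0 (median 0.04), and 0 had an unadjusted p under 0.05. Of 14 genes for mitochondrial import and proteolysis 0 rose and 5 fell (median -0.24), among them the protease subunit Clpx by 0.84, Pam16 of the import motor by 0.67, Timm23 of the inner membrane channel by 0.42 and its partner Timm44 by 0.39. Of the 91 genes in these 6 lists limma called 0 for TAC in WT hearts, KO against WT after TAC, KO against WT after sham and the interaction. In that order 17, 28, 5 and 19 of the 91 had an unadjusted limma p under 0.05. The shares of all genes were 12.3%, 14.6%, 5.54% and 11%.

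Cell type markers moved in the same hearts. In KO TAC against KO sham hearts 10 of 13 fibroblast markers and 9 of 10 macrophage markers rose, 4 of 9 markers of ventricular muscle cells fell, and 2 of 9 endothelial and 1 of 5 smooth muscle markers rose. The summed fibroblast signal (log2) was 18.21 to 18.52 in KO TAC, 17.18 to 17.37 in KO sham, 17.13 to 18.09 in WT TAC and 17.25 to 17.48 in WT sham hearts. The ventricular markers summed to 20.93 to 21.02 in KO TAC, 21.13 to 21.14 in KO sham, 21.03 to 21.09 in WT TAC and 21.07 to 21.12 in WT sham hearts. Tnnt2, Myh6 and Pln, at mean signals of 19.62, 19.34 and 18.87, largely set these sums, and the highest value of the data was 19.93. The 4 that fell for TAC in KO hearts were Tnni3 by 0.58, Ryr2 by 0.48, Ckm by 0.465 and Pln by 0.30. The macrophage markers summed to 14.40 to 15.35 in KO TAC, 13.49 to 13.84 in KO sham, 14.12 to 14.34 in WT TAC and 13.47 to 13.85 in WT sham hearts. The 6 T and B cell markers, at mean signals of 4.33 to 4.89, and the erythroid marker Alas2, at 5.57, were dim (under 6). In whole hearts fewer cells of a type and less RNA per cell cannot be told apart. The part of these cell types in the differences of the ER and mitochondrial members was not tested.

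Atrial muscle markers varied between hearts of the same group: 0 of 7 were called by limma for TAC in KO hearts (2 at an unadjusted p under 0.05), and they summed to 19.67 to 19.97 in KO TAC, 17.88 to 19.74 in KO sham, 18.99 to 19.52 in WT TAC and 17.49 to 19.40 in WT sham hearts. Nppa, at a mean signal of 18.99 against 12.91 for the next brightest (Sln), largely set these sums. It differed by 1.39 ± 0.46 for TAC in KO hearts (limma adjusted p = 0.0761). Over the 7 markers the median difference there was -0.39, with 3 above 0, so the sums do not describe the list as a whole. Myl7, an atrial myosin light chain, read 14.19, 12.28 and 11.41 in KO TAC hearts, 12.83, 15.97 and 12.58 in KO sham hearts, 10.81, 11.72 and 12.33 in WT TAC hearts, and 14.43, 12.81 and 11.23 in WT sham hearts. In KO TAC and WT sham hearts its order was that of the ER medians given above, and in KO sham and WT TAC hearts it was not. With Myl7 as a covariate Pdia3 (0.70, adjusted p = 0.00296), Dnajc10 (0.54, adjusted p = 0.00911), Hsp90aa1 (0.63, adjusted p = 0.0191), Hspd1 (-0.45, adjusted p = 0.0175), Dnaja3 (-0.51, adjusted p = 0.00484) and Dnajb12 (-0.34, adjusted p = 0.0374) stayed called for TAC in KO hearts. Pdia6 was called as well (0.45, adjusted p = 0.0294), while Canx, Dnajb2 and Dnajc25 missed the threshold (adjusted p = 0.0768, 0.0718 and 0.0506). The ER median was then 0.18.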

How the data were processed

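Per the labels' protocols the authors labelled 250 ng of heart RNA per array and hybridised it to Clariom D (MTA 1.0) arrays from Affymetrix. They deposited log2 signals made with Affymetrix Expression Console, per the submitters' processing notes; normalization and summarization are not given in the sources used here. Of 65527 probe sets, 6732 controls were left out, and each gene was read on its brightest probe set with 1 symbol in GEO's platform annotation (26989 genes). Number of arrays limits the precision. Groups were compared with limma 3.58.1 in R 4.3.3 on all 12 arrays (1 mean per group, residual df 8, prior df 3.29), 2-sided, with Benjamini-Hochberg adjustment over all genes, called at adjusted p under 0.05. Errors of differences are standard errors, those of levels standard deviations. The procedure was tested on simulated data. Alternatives changed normalization, the filter on dim genes, variance, weights, covariate, block and arrays used. Array values correlated at 0.9938 to 0.9969 within groups, with 0 identical pairs. Same-numbered KO TAC and KO sham hearts deviated together (r of 0.143 to 0.254 in all 3 pairs), which was not so in every pair of groups.

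The members, the lists by role, the markers and the comparisons were chosen with earlier results of these data known. Called members and the main chaperones of each compartment were given as values per array, as group means with SD or as differences. Where fewer than 5 members were called, the 5 with the smallest p were named, and up to 4 genes per list by role. Promoter windows came from RefSeq (GRCm38.p6), whose build serves only for those sequences.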

Additional observations from a re-analysis of the deposited data

How the results depend on the processing

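The counts for genotype after sham and for the interaction were 0 under every alternative run. For TAC in KO hearts the 9 calls became 16 without genes under a mean log2 signal of 6 (all 9 were among them), and 5 to 12 on leaving out each array in turn; the other planned settings gave 7 to 12. For TAC in WT hearts that filter gave 1 (Hspb8, adjusted p = 0.0488) and the replicate block 1 (Dnajb9, adjusted p = 0.0465), and no array left out gave a call. For KO against WT after TAC the filter gave 1 (Hspd1, adjusted p = 0.0488), and leaving out arrays gave 0 to 3. The filter tests fewer genes. Averaged over genotypes the 10 calls became 16 with array weights and 4 to 12 without 1 array. Calls for TAC in KO hearts were lost by Canx without any KO array, WT sham 1, WT sham 2 or WT TAC 2, by Dnajb2 without any KO TAC or WT sham array, KO sham 2, KO sham 3 or WT TAC 2, and by Dnajc25 without any KO array, WT sham 1 or WT sham 3. Median differences moved by more than the spread between replicates in these cases, whose cause was not tested. With Myl7 as a covariate the ER median was 0.178 for TAC in KO hearts and 0.083 averaged over genotypes. With arrays centred the cytosolic median was 0.032 for TAC in WT hearts and -0.027 for KO against WT after TAC, where the dim filter gave -0.03. Array weights gave a mitochondrial interaction of -0.25. On leaving out arrays the cytosolic median ran from 0.042 to 0.1 for TAC in WT hearts, -0.06 to -0.022 for KO against WT after TAC, 0.02 to 0.064 after sham and -0.068 to -0.007 for the interaction. The mitochondrial median ran from -0.09 to 0.066 for TAC in WT hearts (0.066 without WT TAC 2) and -0.418 to -0.27 for the interaction. The ER median ran from 0.059 to 0.197 for KO against WT after TAC, 0.212 to 0.357 for the interaction and -0.072 to 0.047 for TAC averaged over genotypes. No called difference of a member changed sign. Arrays with the same replicate number did not all deviate together (r from -0.068 to 0.315 over 18 pairs, median 0.124, against -0.268 to 0.2 over 36 others, median -0.062). Deviations within a group of 3 sum to 0, so the other pairs are not an independent reference for the same-numbered ones. Between KO sham and KO TAC hearts the 3 pairs stood at 0.254, 0.143 and 0.173. The labels name no shared litter, batch or day, and whether the numbers mark one is not known. With the replicate block the counts were 10 for TAC in KO hearts, 1 for TAC in WT hearts and 12 averaged over genotypes. Members under a mean signal of 6 lie near background and their differences are the least reliable. The probe set of Hspa8 at its own locus, an alternative added after seeing the data, gave 0.10 for TAC in KO and 0.06 for TAC in WT hearts, without a call.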
